A study of Homo sapiens with 10 samples.

Results

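Aminoacyl-tRNA synthetases join each amino acid to its matching tRNA, so that ribosomes can read the genetic code. Human cells keep separate enzyme sets for the cytosol and for the mitochondria, all encoded in the nucleus, and several cytosolic enzymes assemble with scaffold proteins into a multi-synthetase complex. Transcription of many cytosolic members is known to be raised by the transcription factor ATF4 when amino acids run short. The genes described here form a fixed list of names, which comprises 19 cytosolic enzymes, 3 scaffold proteins of the complex (AIMP1, AIMP2 and EEF1E1) and 16 mitochondrial enzymes. These 38 genes, of 59204 human genes in the tables, each matched 1 gene identifier. GARS1 and KARS1 were counted as cytosolic, although each of these genes gives both a cytosolic and a mitochondrial enzyme.

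The cells were K562, an established human chronic myeloid leukaemia line that carries the BCR-ABL1 fusion, and every group was of this line. Drug exposure lasted 2 hours in all groups, and 100 µM 4-thiouridine, a uridine analogue taken up into new RNA, was present for the final 1 hour. The 5 groups of 2 libraries received DMSO as vehicle, actinomycin D at 1 µg/mL (ActD, which binds DNA and stops transcribing polymerase), AZ5576 at 1 µM (an inhibitor of the elongation kinase CDK9), JQ1 at 1 µM (an inhibitor of BET bromodomain proteins) or A-485 at 1 µM (an inhibitor of the acetyltransferases CBP and p300). In SLAM-seq, thiol alkylation makes incorporated 4-thiouridine read as cytosine, so that reads with T-to-C changes mark RNA made during labelling. Reads came from the 3' ends of transcripts, and each library gives a count of all reads per gene (total RNA) and a count of converted reads (labelled RNA). Drosophila RNA, 5% by the labels, was mixed into the purified RNA before library preparation, and all levels are scaled to its counts. It made up 10.0% to 11.7% of the counts of a library. The scale therefore refers to purified RNA, and neither the number of cells nor the RNA in each cell can be read from it.

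The libraries held 14916671 to 17918971 total counts and 1817677 to 2212752 spike-in counts. Labelled counts were 1410 and 1614 with ActD, 53503 and 62513 with AZ5576, and 322771 to 448401 in the other groups. The 8 erythroid and K562 marker genes fixed for the check were all detected, with 60060 to 77133 summed total counts per library. The 13 markers of lymphoid, myeloid and non-blood cells summed to 1962 to 2324, most of them from EPCAM, CD3D and LYZ, and MS4A1 and MPO were at 0 in every library. The labels do not say whether the 2 libraries of a group came from separate cultures, so p-values measure the spread between these libraries, which may be technical.

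Promoter sequence is shown for the genes whose RefSeq window (250 bases before to 50 after the annotated start, GRCh38.p14) holds TGATGNAAN, the core of the C/EBP-ATF response element through which ATF4 acts, on either strand. The core occurred in 7 of the 16 cytosolic genes with a window (43.8%), in 1 of 14 mitochondrial genes (YARS2) and in none of the 3 scaffold genes, against 4.45% of 27305 genes in the promoter table. Each line gives up to 30 bases on the gene's own strand, 5' to 3', with the core in capitals.
AARS1 (chr16:70289676-70289705, minus strand): cttttctcgcaGTTGCATCAgccaagttag
CARS1 (chr11:3057408-3057437, minus strand): ccggggcggcgGTTGCATCAgattctagga
GARS1 (chr7:30594833-30594862, plus strand): tttacgcggcgATTTCATCAtgctccgagc
IARS1 (chr9:92293693-92293722, minus strand): attttcagcgcGTTGCATCAcctccgtgcg
MARS1 (chr12:57488052-57488081, plus strand): ggccggttccgGTTGCATCAgcgagggatt
NARS1 (chr18:57621804-57621833, minus strand): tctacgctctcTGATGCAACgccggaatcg
TARS1 (chr5:33440955-33440984, plus strand): ggcgcctttcgATTGCATCAgctggtccag
YARS2 (chr12:32756076-32756105, minus strand): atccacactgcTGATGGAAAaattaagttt
MARS2 (chr2:197705347-197705373, plus strand): tgcgcctctcaCACGTGctgtcagaac
The MARS2 line shows in capitals not this core but the E-box named next, because MARS2 carries the largest change in total RNA. In AARS1 and YARS2 the core lay 188 and 197 bases before the start, whereas in NARS1 and TARS1 it lay just after it. The other motifs searched were CACGTG, the E-box that MYC can bind, and TGACGTCA, the cAMP response element. The E-box occurred in the windows of IARS1, CARS2, EARS2, MARS2 and AIMP2, against 8.78% of genes, and the cAMP response element in AIMP2 alone among the members, against 2.25%. A match describes the letters and not binding. LARS1, VARS1, YARS1, AARS2 and VARS2 had no window in the table.

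The histidyl pair is shown because its genes face away from each other across a short shared stretch by their RefSeq starts. In GENCODE the annotated spans of the pair overlap by 437 bases. The 84 bases between the starts that RefSeq gives for HARS1, which encodes the cytosolic enzyme on the minus strand, and for HARS2, which encodes the mitochondrial enzyme on the plus strand, lie at chr5:140691371-140691454 and read as follows on the plus strand.
HARS1-HARS2: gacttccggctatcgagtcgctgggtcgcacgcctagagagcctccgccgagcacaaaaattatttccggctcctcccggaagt
None of the 3 motifs was found in either gene's window.

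In untreated cells most synthetase genes carried a small share of labelled reads, and 3 mitochondrial enzymes stood highest. The labelled share is the labelled count as a percentage of the total count of the same gene, and it rises with the part of a transcript pool made within the labelling hour and with the number of T bases that a read can show. MARS2, the mitochondrial methionyl enzyme, had 24 labelled of 117 total counts in DMSO library 1 and 31 of 110 in library 2, which is 20.5% (95% Wilson interval 14.2 to 28.7) and 28.2% (20.6 to 37.2). PARS2, the prolyl enzyme, had 19 of 166 and 13 of 167, or 11.4% and 7.78%. YARS2, the tyrosyl enzyme, had 21 of 300 and 37 of 307, or 7.0% and 12.1%. These intervals cover counting error only. MARS2 lay above every other member in both libraries, while PARS2 and YARS2 overlapped each other, and the lower library of each overlapped the range of NARS1.

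NARS1, the asparaginyl enzyme, was the highest cytosolic gene at 6.84% ± 1.41 (SD, n = 2), and AIMP1 the highest scaffold gene at 6.68% ± 1.01 (SD, n = 2). The lowest cytosolic shares were those of VARS1 (0.571%) and QARS1 (0.827%), enzymes for valine and glutamine, and the lowest mitochondrial ones were TARS2 (0.531%) and AARS2 (0.403%). The median share was 2.25% over the cytosolic, 3.33% over the mitochondrial and 3.61% over the scaffold genes. Over 10409 genes with a mean of 50 or more total counts in DMSO the median was 3.71%, and 10 of the 38 members exceeded it. A share at or above that of MARS2 was reached by 2.77% of those genes, of PARS2 by 17.2% and of YARS2 by 17.6%.

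The members differ in the sequence that these shares depend on. T made up 43.3% of the last 300 bases of the MARS2 transcript in GENCODE, the highest value among the mitochondrial genes, but 28.7% for PARS2 and 19.3% for YARS2. The median was 24.0% over cytosolic and 27.5% over mitochondrial genes, and the part of base composition in the order of the shares was not tested. MARS2 has 1 exon and PARS2 has 2, whereas the median is 17 over cytosolic and 14.5 over mitochondrial genes. The 3' untranslated region of MARS2 is 1200 bases long with 6 ATTTA pentamers, that of PARS2 836 bases with 2 and that of YARS2 660 bases with none. The pentamer is not particular to these genes: AIMP1 has 7, and EARS2 and WARS2 have 5 each. It occurs in 8 of 16 mitochondrial, 6 of 19 cytosolic and 3 of 3 scaffold genes.

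**Figure D1:**
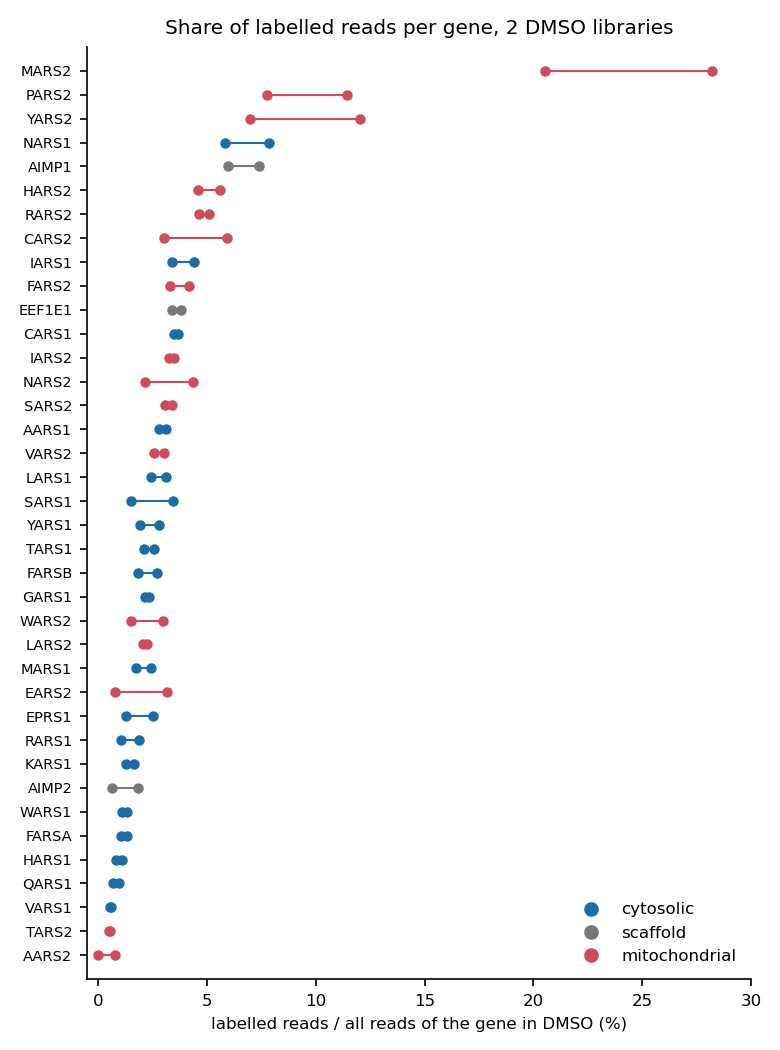
Labelled reads as a percentage of all reads of each of the 38 genes in the 2 DMSO libraries. Points are libraries and the line joins the pair of a gene; MARS2 sits at 20.5% and 28.2%, apart from the rest, and the colours mark cytosolic, scaffold and mitochondrial genes.

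ActD and AZ5576 address what happens when RNA polymerase II is stopped. With ActD, labelled RNA of the whole family fell to 1 count in 2 libraries, a single QARS1 read, against 2777 counts in the DMSO pair. All 19 cytosolic, 3 scaffold and 13 tested mitochondrial genes were lower than in DMSO (edgeR quasi-likelihood test, adjusted p under 0.05), as were 99.2% of all 7996 genes tested, and none was higher. No member had 10 counts in an ActD library, so each passed the filter on low counts through other groups. AARS2, NARS2 and TARS2 had too few labelled counts to be tested in any labelled comparison, so 35 of 38 members were tested. Summed cytosolic labelled counts were 1034 and 1054 in DMSO and 1 and 0 with ActD, a ratio of 2356 on the spike-in scale with a 95% counting interval of 422 to 93119. For groups at 0 counts a lower bound was computed from 3 counts over the pair of libraries: mitochondrial labelled RNA was at least 168-fold lower, NARS1 at least 156-fold, IARS1 at least 91.4-fold and KARS1 at least 84.3-fold.

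With AZ5576 the loss was less complete, and labelled reads of a few members could still be counted. All 35 tested members were lower than in DMSO, as were 94.7% of all genes tested (0.2% were higher). Only EPRS1, IARS1 and VARS1 reached 10 counts in an AZ5576 library, so the other tested members passed the filter on low counts through other groups alone. Both AZ5576 libraries lay below both DMSO libraries for 19 of 19 cytosolic, 3 of 3 scaffold and 15 of 16 mitochondrial genes, untested ones included. The share of all genes tested was 96.7%. They lay above for no member, against 0.4%. With ActD the numbers of members were the same, against 99.1%. The cytosolic sum was 33 and 54 counts, 3.93% of the DMSO level, and the mitochondrial sum was 7 and 15 counts, or 4.62%. Labelled counts summed over all genes were at 12.5% of DMSO, a sum in which genes with many counts weigh most. Medians over genes cannot show how the members compare with the rest. A gene at 0 counts with AZ5576 has a fold change set by its depth in DMSO, and 17 of the 38 were at 0. The median log2 fold change was -5.91 over cytosolic, -6.72 over scaffold and -5.15 over tested mitochondrial genes, against -5.94 over all genes tested. EPRS1, which charges both glutamate and proline tRNA, had 18 and 43 labelled counts in DMSO and 8 and 12 with AZ5576, so that its level was 3.19-fold lower, but 1.85-fold without DMSO replicate 2. CARS2 kept 0 and 5 counts, IARS2 7 and 0, and QARS1 7 and 3, too few for a stable ratio. IARS1, with 133 and 110 counts falling to 8 and 13, was 12.1-fold lower. NARS1 fell from 181 and 233 counts to 6 and 5, which is 39.4-fold. VARS1 had 0 and 13 counts with AZ5576, all of them in AZ5576 library 2. In contrast TARS1, with 58 and 51 counts in DMSO, had none in either library and was at least 38.04-fold lower. In all, 17 of the 38 genes had no labelled count with AZ5576, 10 of them mitochondrial genes with few counts in DMSO.

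Both calls depend on the spike-in as the scale. When libraries were instead scaled to each other by TMM, which takes most human genes as unchanged, the median of all genes moved by 1.02 with ActD and 3.31 with AZ5576 on the log2 scale. The lower calls then numbered 3 cytosolic and no other members with ActD, and 8 cytosolic, 1 scaffold and 2 mitochondrial with AZ5576, where EPRS1 was higher by 1.88. Of the genes called in either direction, 95.4% were lower with ActD and 81.1% with AZ5576 on that scale, in place of 100% and 99.8%.

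**Figure D2:**
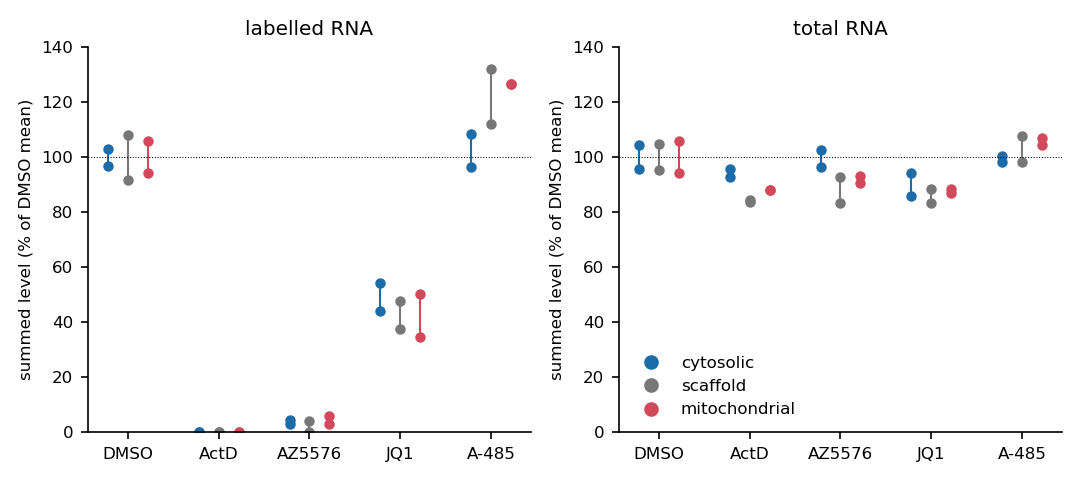
Summed levels of the cytosolic, scaffold and mitochondrial genes on the spike-in scale, as a percentage of the mean of the DMSO libraries, for labelled RNA (left) and total RNA (right). Points are libraries; labelled RNA is near 0 with ActD and AZ5576 and at 42.5% to 49.2% of DMSO with JQ1, whereas total RNA stays between 84.0% and 106% in group means.

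Total RNA, which also holds the transcripts made before the drugs were added, showed which members ran down over 2 hours. Cytosolic summed levels were 94.4% of DMSO with ActD and 99.4% with AZ5576, and mitochondrial ones 88.1% and 91.8%. With ActD, 5 of the 38 genes were lower: TARS1, EEF1E1, MARS2, PARS2 and YARS2 (1 of 19 cytosolic, 1 of 3 scaffold and 3 of 16 mitochondrial), against 19.7% of all 14572 genes tested. With AZ5576 the lower genes were MARS2, PARS2 and YARS2, against 12.9% of all genes. No cytosolic gene passed (1 at an unadjusted p under 0.05, none with DESeq2). TARS1 and the scaffold gene EEF1E1 did pass with the replicate block described at the end. No member was higher in either comparison, against 0.336% and 0.782% of all genes. Both ActD libraries lay below both DMSO libraries for 10 of 19 cytosolic, 3 of 3 scaffold and 7 of 16 mitochondrial genes, against 52.3% of all genes, and above them for none, against 3.87%. With AZ5576 both lay below for 4, 1 and 8 of these genes, against 40.9%, and above for 1 cytosolic and 2 mitochondrial genes, against 9.59%. The median log2 fold change with ActD was -0.13 over cytosolic and -0.17 over mitochondrial genes, against -0.27 over all genes tested. With AZ5576 the corresponding medians were -0.01, -0.16 and -0.15. Both comparisons use the same DMSO libraries.

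MARS2 (chr2:197705369-197708387, plus strand) showed the largest fall of any member with both drugs. Its total counts were 117 and 110 in DMSO, 64 and 38 with ActD, 38 and 47 with AZ5576, 101 and 102 in the JQ1 pair, and 169 and 129 in the A-485 pair. Both ActD and both AZ5576 libraries lay below every library of the other groups on the spike-in scale. The log2 fold change was -1.32 (SE 0.28, adjusted p = 0.000643) with ActD and -1.48 (SE 0.29, adjusted p = 0.000217) with AZ5576, which left 40.3% and 35.7% of the DMSO level. With JQ1 it was -0.38 (adjusted p = 0.389) and with A-485 0.30 (adjusted p = 0.963), neither past the threshold.

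PARS2 (chr1:54756898-54764514, minus strand) followed closely. Its total counts were 166 and 167 in DMSO, 89 and 84 with ActD, 71 and 76 with AZ5576, 173 and 261 in the JQ1 pair, and 242 and 230 in the A-485 pair. The ActD and AZ5576 libraries again lay below all others, at 46.1% and 42.2% of DMSO, with log2 fold changes of -1.12 (SE 0.23, adjusted p = 0.000376) and -1.24 (SE 0.23, adjusted p = 0.000130). JQ1 gave 0.17 with libraries on either side of DMSO, and A-485 gave 0.41 (adjusted p = 0.745). The MARS2 and PARS2 calls for ActD and AZ5576 held in every alternative run, including TMM scaling and each library left out in turn.

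YARS2 (chr12:32727490-32755902, minus strand) was lower with 3 of the 4 drugs. Total counts were 300 and 307 in DMSO, 221 and 205 with ActD, 200 and 146 with AZ5576, 206 and 188 in the JQ1 pair, and 329 and 328 in the A-485 pair. The libraries of ActD, AZ5576 and JQ1 did not overlap those of DMSO, while the A-485 libraries fell within the DMSO range. Log2 fold changes were -0.68 (SE 0.18, adjusted p = 0.00686), -0.86 (SE 0.19, adjusted p = 0.000944) and -0.84 (SE 0.19, adjusted p = 0.00246). The ActD call was lost without DMSO replicate 2 (adjusted p = 0.0848), without ActD replicate 2 (0.0934) and on TMM scaling (0.138), the AZ5576 call without AZ5576 replicate 2 (0.0963), and the JQ1 call without DMSO replicate 2 (0.0635) and on TMM scaling (0.0604). The 3' end of YARS2 lies within DNM1L on the opposite strand, and whether counting used strand is not given in the sources used here. DNM1L total counts were 584 and 679 in DMSO and 744 and 732 with JQ1 (log2 fold change 0.00).

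**Figure D3:**
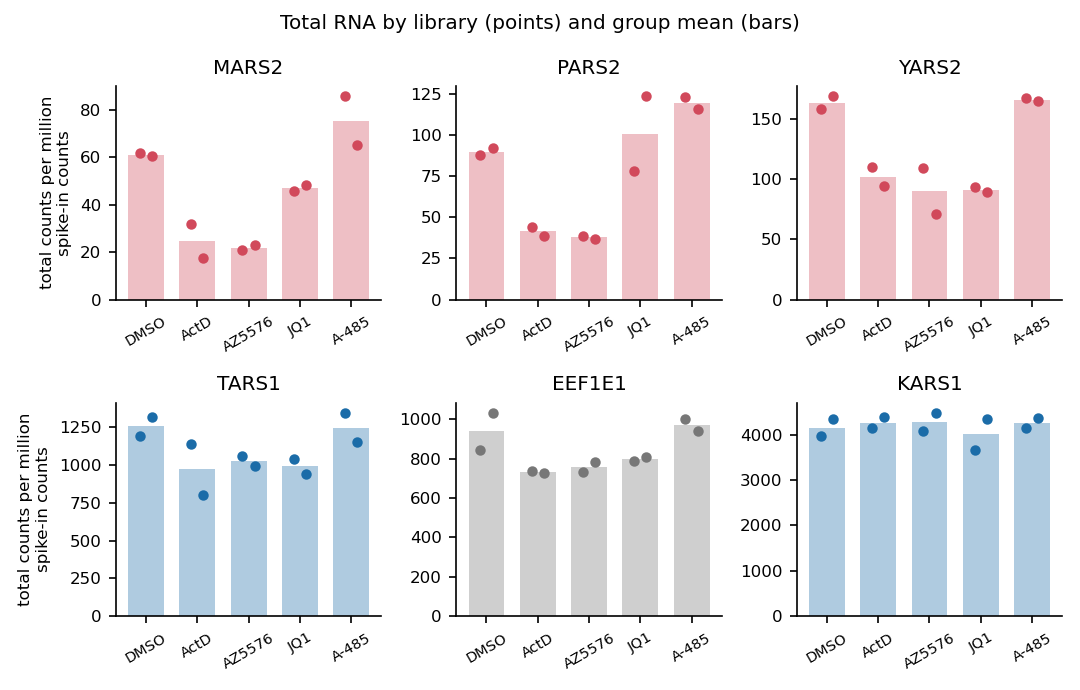
Total counts scaled to the spike-in (vertical axis) for MARS2, PARS2, YARS2, TARS1, EEF1E1 and KARS1 in the 5 groups; points are libraries and bars group means. The upper row falls with ActD and AZ5576 and YARS2 also with JQ1, whereas KARS1, which was not lower in any comparison of total RNA, stays level.

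TARS1, the cytosolic threonyl enzyme, and EEF1E1, a scaffold protein of the complex, moved by far less. TARS1 total counts were 2264 and 2398 in DMSO and 2298 and 1748 with ActD, a log2 fold change of -0.37 (SE 0.12, adjusted p = 0.0307), and with AZ5576, at 1943 and 2046 counts, it was -0.29 (adjusted p = 0.131). EEF1E1 had 1602 and 1877 counts in DMSO and 1482 and 1576 with ActD, which gave -0.36 (SE 0.11, adjusted p = 0.0154), and -0.31 (adjusted p = 0.0562) with AZ5576. The TARS1 call was lost without DMSO replicate 1 (adjusted p = 0.0506), DMSO replicate 2 (0.291) or ActD replicate 2 (0.506). The EEF1E1 call was lost without DMSO replicate 2 (0.333), ActD replicate 1 (0.0700) or ActD replicate 2 (0.0856). On TMM scaling, which moved the median of all genes by 0.25 with ActD, no TARS1 or EEF1E1 call was left and 4 cytosolic genes were called higher. On that scale 59.3% of the called genes were lower with ActD and 68.9% with AZ5576, in place of 98.3% and 94.3%.

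The cytosolic and mitochondrial enzymes were also set against each other within each library, so that scaling cancels. The log2 ratio of summed cytosolic to summed mitochondrial total counts was 3.03 and 2.99 in DMSO, 3.09 and 3.14 with ActD, and 3.10 and 3.15 with AZ5576. Both ActD and both AZ5576 libraries thus lay above both DMSO libraries, by 0.10 and 0.11 on average, and A-485 libraries lay below them by 0.09. With the mean of log2(count + 1) over genes in place of sums the ActD and AZ5576 differences were 0.20 and 0.27. An exact two-sided permutation test gave p = 0.333 in these 3 cases, the smallest value that 2 against 2 libraries allow, and p = 0.667 for JQ1, so no difference can pass a threshold of 0.05. In labelled RNA the ratio was 2.27 and 2.19 in DMSO, 2.57 and 2.34 for JQ1, 1.83 and 2.00 for A-485, and 2.24 and 1.85 with AZ5576. The JQ1 libraries were above DMSO, by 0.23 (0.11 without JQ1 replicate 1 and 0.35 without JQ1 replicate 2), and the A-485 libraries below it (exact permutation p = 0.333 for each, the smallest possible), while those of AZ5576 were not separate from DMSO (p = 0.667). The 7 drug comparisons form 1 family, and no adjusted value can be lower than 0.333. No labelled ratio was formed for ActD, which had no mitochondrial count.

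**Figure D4:**
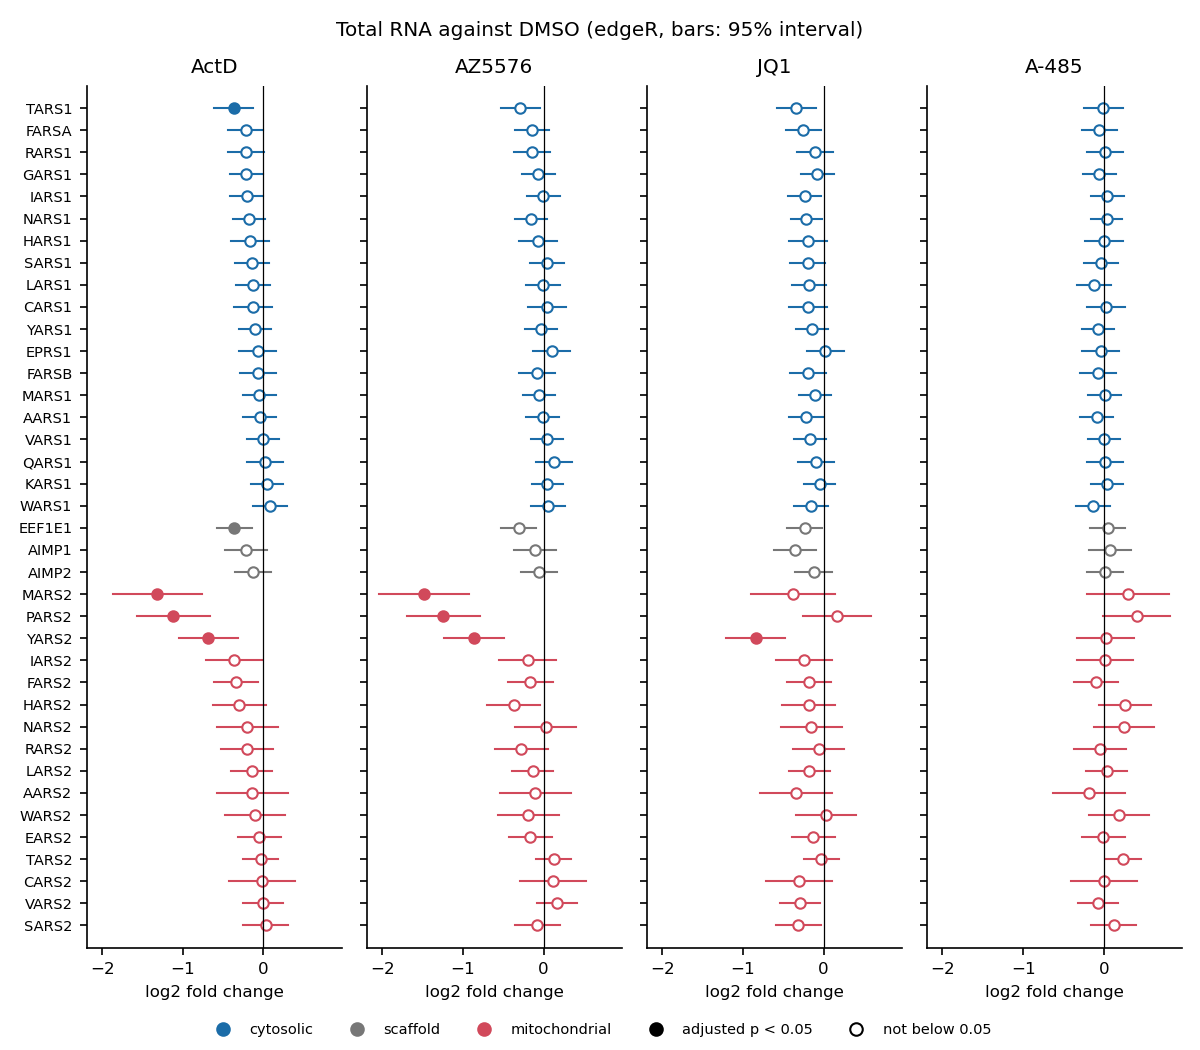
Log2 fold change of total RNA against DMSO for the 38 genes under ActD, AZ5576, JQ1 and A-485, with 95% intervals from edgeR; filled points passed an adjusted p of 0.05. MARS2, PARS2 and YARS2 stand apart from the other mitochondrial genes under ActD and AZ5576, and YARS2 alone is filled under JQ1.

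With JQ1 some synthetase genes were lower in labelled RNA, most of them cytosolic. The cytosolic sum was 548 and 647 labelled counts against 1034 and 1054 in DMSO, which is 49.2% on the spike-in scale. The mitochondrial sum was 92 and 128 against 215 and 231 (42.5%) and the scaffold sum 69 and 52 against 134 and 109 (42.7%), and these sums have no test of their own. Labelled counts of all genes stood at 64.7% of DMSO. AARS1, CARS1, KARS1, LARS1, MARS1, NARS1, TARS1, VARS1 and YARS1 passed the test, that is 9 of 19 cytosolic genes, together with 2 of 3 scaffold genes (AIMP1 and EEF1E1) and 2 of 13 tested mitochondrial genes (MARS2 and YARS2), against 28.6% of all genes tested. No member was higher, against 1.26% of all genes. The median log2 fold change was -1.08 over cytosolic, -1.30 over scaffold and -1.50 over tested mitochondrial genes, against -0.85 over all genes tested. Both JQ1 libraries lay below both DMSO libraries for 16 of 19 cytosolic and 11 of 16 mitochondrial genes, untested ones included. The share of all genes tested was 62.9%. They lay above for none of these, against 6.73%.

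NARS1, the cytosolic gene with the most labelled counts in DMSO, went from 181 and 233 counts to 109 and 119 with JQ1 (log2 fold change -1.08, SE 0.25, adjusted p = 0.000177). KARS1, the lysyl enzyme, went from 123 and 101 to 58 and 61 counts (-1.13, SE 0.31, adjusted p = 0.00210). AARS1, the alanyl enzyme, went from 47 and 54 to 15 and 30 (-1.38, SE 0.46, adjusted p = 0.0134). In each of these genes both JQ1 libraries were below both DMSO libraries. TARS1 (-1.28) and YARS1 (-1.18) changed by similar amounts, and IARS1, at 133 and 110 against 81 and 95 counts, just missed the threshold at -0.68 (adjusted p = 0.0501). Calls of single genes depended on the libraries kept. That of NARS1 was lost without DMSO replicate 2 (-0.855) and that of KARS1 without DMSO replicate 1 (-1.01). That of TARS1 was lost without DMSO replicate 1 (-1.21), DMSO replicate 2 (-1.34) or JQ1 replicate 1 (-0.997).

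Among mitochondrial genes YARS2 went from 21 and 37 labelled counts to 5 and 1 (-3.45, SE 0.76, adjusted p = 0.000112), the largest fall with JQ1 among the members. MARS2 went from 24 and 31 to 6 and 13 (-1.74, SE 0.62, adjusted p = 0.0226). Both have under 50 labelled counts and were named after their values were seen. YARS2 reached 10 counts in the DMSO and A-485 libraries alone, so that its entry into the test favoured this call. PARS2, in contrast, had 19 and 13 counts in DMSO and 9 and 29 with JQ1, so that its groups overlapped (0.04, adjusted p = 0.966). YARS2 was thus lower in labelled and in total RNA with JQ1, whereas MARS2 passed in labelled RNA alone. The MARS2 call was lost without DMSO replicate 1 (adjusted p = 0.0650), DMSO replicate 2 (0.197) or JQ1 replicate 1 (0.196), with DESeq2 (0.0613), with no filter on low counts (0.0502) and on TMM scaling (0.426).

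These calls rest on few counts. The cytosolic count of 9 became 3 without DMSO replicate 1, DMSO replicate 2 or JQ1 replicate 1, and 7 without JQ1 replicate 2, and the mitochondrial count of 2 became 1, 1, 1 and 4 in the same order. On TMM scaling, where the median of all genes moved by 0.86, no cytosolic or scaffold gene was lower, YARS2 stayed lower among mitochondrial genes, and 44.9% of the called genes in all were lower in place of 95.8%. Of the 7 cytosolic genes printed above with the C/EBP-ATF core, 5 were called lower with JQ1 (log2 fold changes from -1.69 to -0.53), and of the 9 whose window lacked it 1 was (from -1.14 to -0.21), beside the 28.6% of all genes. Over all tested genes with a window, 34.7% of 147 genes with the core and 29.5% of 6010 without it were lower. The medians of these cytosolic genes were -1.26 with the core and -0.98 without it. They were -1.21 and -0.86 without DMSO replicate 1, and -1.24 and -0.85 without DMSO replicate 2. Without JQ1 replicate 1 they were -0.94 and -0.60, and without JQ1 replicate 2 -1.62 and -1.14. The larger number of calls in the set with the core was not kept with every library left out. On TMM scaling neither set had a call. The ranges overlap, the count has no test, and LARS1, VARS1 and YARS1, also called lower, have no window. ATF4 had 489 and 543 labelled reads in DMSO and 667 and 657 with JQ1, a log2 fold change of 0.14 (adjusted p = 0.570), while MYC went from 109 and 108 to 40 and 6 (-2.46). On TMM scaling the ATF4 value was 1.00 and past the threshold.

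A-485 left the labelled sum of the cytosolic synthetases near the DMSO level, while the scaffold and mitochondrial sums lay above it. These sums have no test of their own. The cytosolic sum was 1070 and 1209 labelled counts (102% of DMSO), the scaffold sum 144 and 171 (122%) and the mitochondrial sum 300 and 302 (127%), while labelled counts of all genes were at 91.4%. No member passed the edgeR test in either direction, against 4.86% of all genes lower and 0.163% higher. At an unadjusted p under 0.05 no cytosolic or scaffold gene and 1 mitochondrial gene, HARS2, was reached, and DESeq2 called none. NARS1, shown for its depth and chosen after its values were seen, at 175 and 225 counts, had a log2 fold change of -0.14 with a 95% interval of -0.61 to 0.32, and KARS1, at 105 and 138, had 0.03 (-0.54 to 0.59). Both libraries of A-485 lay above both of DMSO for 6 of 16 mitochondrial and 3 of 19 cytosolic genes, against 18.4% of the 7996 genes tested. They lay below them for 1 and 3, against 28.7%. The 16 take in AARS2, NARS2 and TARS2, which were not tested. WARS2, among the 6, reached 10 counts in the A-485 libraries alone, so its entry into the test favoured the higher side. On TMM scaling 82.2% of the called genes were lower in place of 96.8%. MYC labelled RNA was lower with A-485 by a log2 fold change of -3.14 in the same libraries.

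HARS2 had 14 and 13 labelled counts in the DMSO pair, 7 and 4 in the JQ1 pair and 30 and 46 in the A-485 pair. The A-485 libraries lay above all others, but the log2 fold change against DMSO of 1.39 (SE 0.61) did not pass after adjustment (adjusted p = 0.251). Its divergent neighbour HARS1 had 13 and 21, 8 and 12, and 10 and 18 counts in the same groups, so that JQ1 lay below DMSO and A-485 overlapped it. The 3' end of HARS1 lies within WDR55 on the opposite strand, which had 67 and 88, 56 and 52, and 68 and 62 labelled counts. The 3' end of HARS2 lies within ZMAT2 on the same strand, so reads of the pair may not be separable. For ZMAT2 the labelled counts were 26 and 30 (DMSO), 24 and 20 (JQ1), and 46 and 46 (A-485), and the part of ZMAT2 in the HARS2 values was not tested.

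The difference between JQ1 and A-485 was tested directly. Labelled RNA was higher with A-485 for 11 of 19 cytosolic genes (AARS1, FARSA, FARSB, IARS1, KARS1, LARS1, MARS1, NARS1, QARS1, VARS1 and YARS1), for AIMP1 and EEF1E1 among the scaffold genes, and for 6 of 13 tested mitochondrial genes (HARS2, LARS2, MARS2, VARS2, WARS2 and YARS2), against 24.8% of all genes. WARS2, with 2 and 0 counts with JQ1 and 10 and 16 with A-485, reached the minimum of 10 counts in the A-485 libraries alone, so that its entry into the test favoured this call, and without it the count was 5 of 12. No member was lower, against 3.14%. Both A-485 libraries lay above both JQ1 libraries for 16 of 19 cytosolic, 3 of 3 scaffold and 11 of 16 mitochondrial genes, untested ones included. The share of all genes tested was 55.3%. The median log2 difference, A-485 minus JQ1, was 1.09 over cytosolic, 1.39 over scaffold and 1.67 over tested mitochondrial genes. Without WARS2 the mitochondrial median was 1.64, and over all genes tested the median was 0.72. LARS1, the leucyl enzyme of the complex, had 12 and 15 labelled counts with JQ1 and 63 and 49 with A-485 (2.169, SE 0.50). AIMP1 had 18 and 13 against 46 and 61 counts (1.91, SE 0.49), and HARS2 differed by 2.89 (SE 0.69, adjusted p = 0.000410). HARS1 differed by 0.60 (adjusted p = 0.577). The cytosolic count of 11 became 4 without JQ1 replicate 1 and 3 without A-485 replicate 2, and the mitochondrial count of 6 became 2 without A-485 replicate 1. On TMM scaling, which moved the median of all genes by -0.63, 2 cytosolic, no scaffold and 2 mitochondrial genes were higher, and 54.0% of the called genes in all were lower in place of 11.2%.

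**Figure D5:**
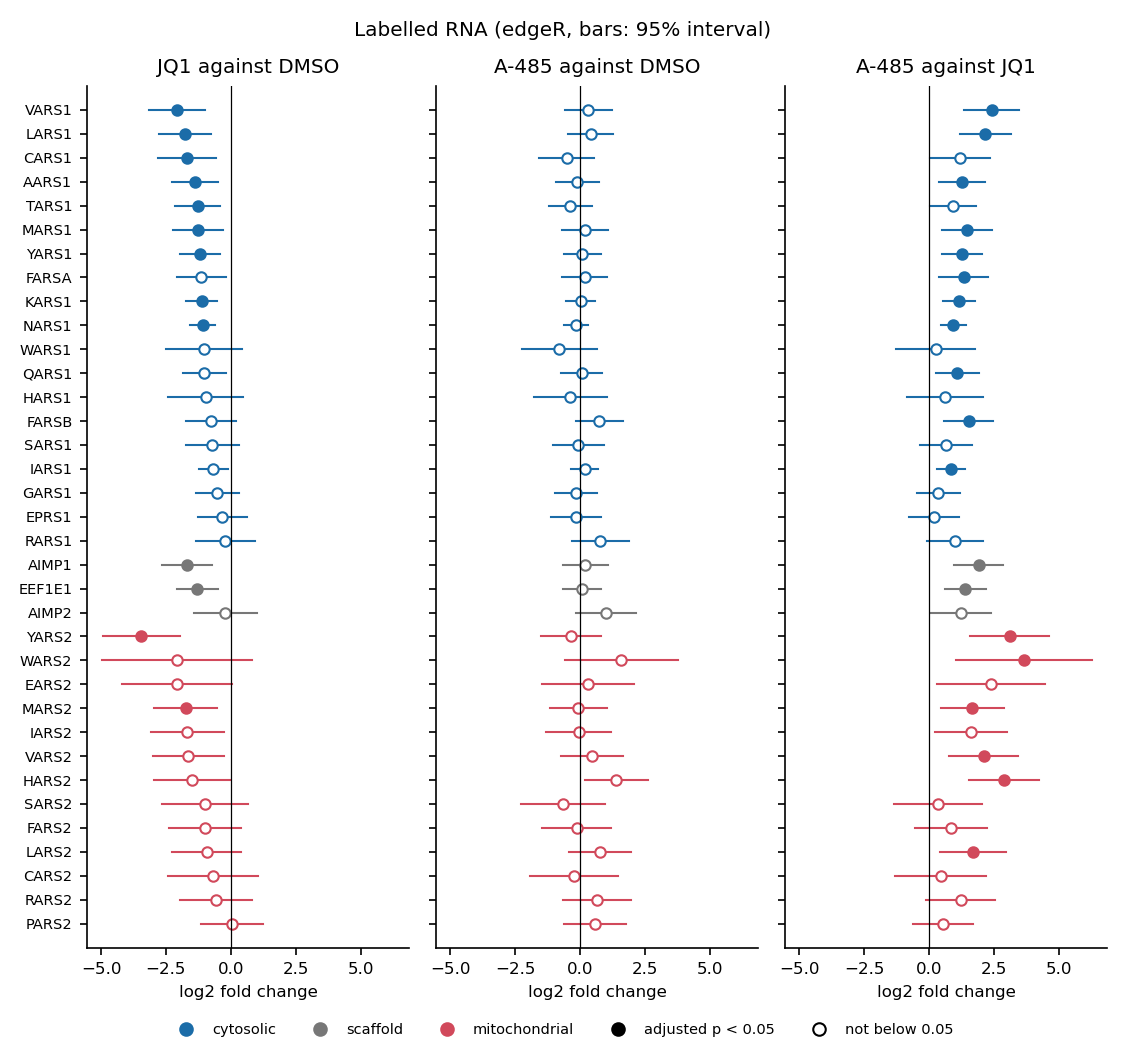
Log2 fold change of labelled RNA for the 35 tested genes, for JQ1 against DMSO, A-485 against DMSO and A-485 against JQ1, with 95% intervals from edgeR; filled points passed an adjusted p of 0.05. With JQ1, 13 points are filled on the lower side, with A-485 none, and 19 are filled on the higher side in the direct comparison.

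In total RNA, JQ1 and A-485 changed few members. YARS2 was the single member lower with JQ1, against 7.35% of all genes, and none was higher, against 0.837%. Both JQ1 libraries lay below both DMSO libraries for 12 of 19 cytosolic, 2 of 3 scaffold and 8 of 16 mitochondrial genes, against 44.5% of all genes, and above them for none, against 7.31%. No cytosolic gene passed (5 at an unadjusted p under 0.05, none with DESeq2), although some did with the replicate block described at the end. The cytosolic sum was at 90.1% and the mitochondrial sum at 87.7% of DMSO. On TMM scaling 57.4% of the genes called with JQ1 were lower in place of 89.8%, and no member was lower. With A-485 no member passed, against 1.20% of all genes lower and 0.0343% higher. At an unadjusted p under 0.05 there was 1 mitochondrial gene on the higher side, and DESeq2 called none. Both A-485 libraries lay below both DMSO libraries for 3 of 19 cytosolic and 2 of 16 mitochondrial genes, against 23.4%, and above them for 1 and 5, against 12.8%.

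The enzymes of the multi-synthetase complex were counted as a list of their own. Of EPRS1, IARS1, KARS1, LARS1, MARS1, QARS1 and RARS1, KARS1, LARS1 and MARS1 were lower in labelled RNA with JQ1 (3 of 7, against 28.6% of all genes). None was lower in total RNA with ActD or AZ5576, against 19.7% and 12.9%. MARS1 shares its 3' end with DDIT3 on the opposite strand. DDIT3 total counts were 409 and 342 in DMSO and 109 and 163 with ActD, while those of MARS1 were 1835 and 1817 against 1915 and 2065.

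Genes that work beside the synthetases were counted in total RNA, where 19.7%, 12.9%, 7.35% and 1.2% of all genes were lower with ActD, AZ5576, JQ1 and A-485. The 7 cytosolic elongation factors, which bring charged tRNA to the ribosome and move it along, had no member past the threshold with any of the 4 drugs. The 13 mitochondrial translation factors had 3 lower with ActD (TSFM, MTRF1L and MTRFR) and 3 with AZ5576 (TSFM, MTRFR and QRSL1), and none with JQ1 or A-485. MTRFR, a factor that rescues stalled mitochondrial ribosomes, had log2 fold changes of -0.49 and -0.67 with ActD and AZ5576. Of 30 tRNA maturation genes 10, 8, 7 and 0 were lower with ActD, AZ5576, JQ1 and A-485. RPP38, a protein subunit of RNase P, had -1.59 with ActD and -1.84 with AZ5576.

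The 21 amino acid response genes, which include ATF4 and several of its known targets, had 10 lower with ActD, 10 with AZ5576, 3 with JQ1 and 3 with A-485, and none higher in total RNA. The shares of all genes lower in these comparisons were 19.7%, 12.9%, 7.35% and 1.2%, and those higher 0.336%, 0.782%, 0.837% and 0.0343%. ATF4 itself had 4204 and 5041 total counts in DMSO, 3174 and 4397 with ActD (log2 fold change -0.47, adjusted p = 0.00645) and 2146 and 2750 with AZ5576 (-0.99, adjusted p = 9.20e-07). The ActD call of ATF4 was lost without DMSO replicate 2 (adjusted p = 0.221), without ActD replicate 1 (0.171) and on TMM scaling (0.168). DDIT3, a stress-induced transcription factor, had -1.64 and -1.97 with ActD and AZ5576, and DDIT4 had -1.91 and -1.87. In labelled RNA with JQ1, 4 of 18 tested response genes were lower, 8 of 27 tRNA maturation genes, 2 of 12 mitochondrial translation factors (GFM1 and MTIF3) and 2 of 6 elongation factors (EEF1A1 and EEF1G), beside the 28.6% of all genes given above.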

How the data were processed

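SLAM-seq 3' libraries from 10 K562 samples were analysed from the authors' deposited tables of raw read counts per gene for labelled, total and spike-in reads. Demultiplexing used bcl2fastq 2.17.1.14 and trimming Trim Galore 0.6.5, with builds hg38 and dm6, per the submitters' processing notes, which also name bedtools. For the aligner, conversion caller, strand setting and read filters, the sources used here give nothing. Groups came from the treatment labels. Gene symbols were matched through GENCODE and RefSeq tables.

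Counts were tested with edgeR 4.0.16 (quasi-likelihood, robust; R 4.3.3), with the spike-in column sum as library size and all 10 libraries in 1 fit with 5 residual degrees of freedom. Genes with 10 or more counts in 2 or more libraries entered, and p-values were adjusted by Benjamini-Hochberg over all of them, with a threshold of 0.05. The scripts were tested on simulated data. DESeq2 1.42.0, TMM, no filter, 2-group fits, a replicate block and leaving out each library were alternatives. Ratios were compared by exact permutation over libraries, enumerated in Python. Wilson and counting intervals, computed with scipy 1.17.1, are at 95% and cover counting error only. No library repeated another within sampling noise.

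Fold changes are printed for a panel fixed by name, for up to 4 cytosolic, 4 mitochondrial and 2 scaffold genes with the largest called change, non-overlapping libraries and a mean of 50 or more counts, and for list genes chosen likewise. ATF4 and MYC are context. CARS1, MARS1, VARS1, LARS1, MARS2, PARS2, YARS2, TARS1 and EEF1E1 are named beyond it where the text says so, or follow from a count of calls. The members and lists were chosen with earlier results of these data known.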

Additional observations from a re-analysis of the deposited data

How the results depend on the processing

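Scaling mattered most: the spike-in scale lets most genes fall, TMM does not. With TMM, lower labelled calls were 3 cytosolic, 0 scaffold and 0 mitochondrial with ActD, 8, 1 and 2 with AZ5576 (1 cytosolic gene higher, EPRS1 at 1.88), and 0, 0 and 1 with JQ1, where IARS1 turned to 0.18 and SLC38A2 to 0.0757. With A-485 against JQ1, 2, 0 and 2 were higher and HARS1 turned to -0.0350, and with A-485 against DMSO NARS1 turned to 0.0840. In total RNA with TMM, ActD gave 0 cytosolic and 0 scaffold genes lower and 4 cytosolic higher, AZ5576 1 cytosolic and 1 mitochondrial higher, and JQ1 0 mitochondrial lower. DESeq2 left 1 mitochondrial gene lower in labelled RNA with JQ1, and so did testing with no filter on low counts, which also gave 3 mitochondrial genes higher with A-485 against JQ1 and 1 cytosolic gene lower in total RNA with JQ1. The mean of log2(count + 1) in place of sums gave ratio changes of -1.24 in labelled RNA with AZ5576, where many genes are at 0, and of 0.20 with ActD and 0.27 with AZ5576 in total RNA. Without GARS1 and KARS1 the labelled AZ5576 ratio change was 0.0302. The cause of these shifts was not tested further.

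Correlations of the deviations of same-numbered libraries ran from -0.06 to 0.23 and were over 0.1 in 6 of 10 pairs of groups in total RNA and 1 of 3 in labelled RNA. As not every pair passed that mark, the numbers were not taken as pairs, but an effect shared by libraries of the same number is not excluded by this. With the replicate block, total RNA gave 3 cytosolic and 5 mitochondrial genes lower with ActD, TARS1 (adjusted p = 0.0445) and EEF1E1 (0.0139), 1 cytosolic and 1 scaffold gene, with AZ5576, and 4 cytosolic and 1 scaffold with JQ1. The block turned labelled PARS2 with JQ1 to -0.0436.

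Leaving out 1 library at a time, labelled JQ1 counts of lower genes ranged from 3 to 7 cytosolic, 0 to 2 scaffold and 1 to 4 mitochondrial, and A-485 against JQ1 counts of higher genes from 3 to 9, 1 to 2 and 2 to 4. Total RNA counts ranged from 0 to 1 (ActD, cytosolic and scaffold), 0 to 1 (AZ5576, scaffold), and 0 to 2 cytosolic and 0 to 3 mitochondrial (JQ1). Values within error of 0 changed sign: PARS2 with JQ1 ranged from -1.07 to 0.67 in labelled and from -0.20 to 0.46 in total RNA, labelled ATF4 with A-485 ranged from -0.0179 to 0.194, and total YARS2 with A-485 from -0.0238 to 0.0699. With A-485 labelled NARS1 ranged from -0.342 to 0.0824 and KARS1 from -0.177 to 0.207. Depth limits the labelled results: mitochondrial genes had a median of 14.0 labelled counts in DMSO and cytosolic genes 39.5.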
